A study of Sus scrofa with 6 samples.

Results

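RETREG1 and UBXN2A are genes whose products act at the endoplasmic reticulum (ER) and on protein turnover. They were taken as every probe set whose platform gene symbol is RETREG1 (older name FAM134B) or UBXN2A, which gave 3 of 23999 probe sets and 2 of 6765 named genes. RETREG1 was read by Ssc.26113.1.S1_at, called the first probe set here, and by Ssc.26113.2.S1_at, the second, and UBXN2A by Ssc.30067.1.A1_at. All 3 passed the filter on dim probe sets, set at the 40th percentile of mean log2 intensity. Both genes were selected on the clear separation of the breeds in their log2 intensities, so their breed difference is described here and was not tested.

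The samples were longissimus dorsi, a back muscle, from 3 Northeastern Indigenous boars and 3 Large White boars, the control breed. All were killed at 150 days of age after sharing the same feed and housing, and each gave 1 Affymetrix Porcine Genome Array. The labels call the samples of a breed biological replicates, so with 3 animals a breed the number of arrays limits the precision. Values are log2 intensities after quantile normalization unless stated, and differences are Northeastern Indigenous minus Large White.

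RETREG1 is a membrane receptor for ER-phagy, the selective removal of pieces of the ER by autophagy. Its hairpin domain bends ER tubules and sheets, and a short motif binds the LC3 and GABARAP proteins that coat the growing autophagosome. In people, loss of the gene causes a hereditary sensory neuropathy. UBXN2A carries a UBX domain, the module that docks on VCP (p97), the ATPase that pulls ubiquitin-tagged proteins out of membranes and complexes for the proteasome, among them misfolded proteins of the ER. In mammalian cells UBXN2A has also been linked to the turnover of nicotinic acetylcholine receptors and to the chaperone HSPA9, known as mortalin. In skeletal muscle the ER takes the form of the sarcoplasmic reticulum, which stores calcium for contraction.

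The Large White arrays differed among themselves in markers of other cell types, and this touches every comparison that follows. Relative to the Northeastern Indigenous mean, the median of 7 measured adipocyte markers of 10 lay 3.70 log2 units higher on Large White replicate 1, 0.22 higher on replicate 2 and 2.42 higher on replicate 3. The median of 13 muscle fibre markers of 15 lay at -3.27, -0.03 and -0.35 on the same arrays. Leukocyte markers, 11 of 16 measured, lay at 2.31, 0.72 and 2.23, and fibroblast and matrix markers, 8 of 10 measured, at 1.93, 0.48 and 1.92. The summed deposited intensity of the adipocyte markers ran from 5661 to 8426 in Northeastern Indigenous boars and from 5418 to 43247 in Large White boars. That of the muscle fibre markers ran from 372926 to 388567 in Northeastern Indigenous boars and from 54072 to 425462 in Large White boars. For leukocyte markers the sum ran from 2327 to 4581 in Northeastern Indigenous boars and from 8048 to 22529 in Large White boars, and for fibroblast and matrix markers from 26716 to 39980 in Northeastern Indigenous boars and from 46806 to 85656 in Large White boars. None of these markers was listed at 0. The endothelial, smooth muscle, nerve and red cell medians, over 6, 5, 3 and 4 measured genes, stayed within 0.58 of the Northeastern Indigenous mean on the Large White arrays, except for the red cell markers on replicate 3, at 1.07. Single genes in these lists went further and in both directions. Northeastern Indigenous minus Large White replicate 1 was 2.38 for SOX10 and -1.69 for S100B, both nerve markers, and 3.02 for CNN1, a smooth muscle marker. In bulk tissue, fewer cells of a type and less RNA per cell cannot be told apart. Large White replicate 2 was therefore also set by itself against the Northeastern Indigenous mean.

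RETREG1 was brighter on all Northeastern Indigenous arrays than on any Large White array, with both of its probe sets. The first probe set read 9.77, 9.79 and 9.69 in Northeastern Indigenous boars, against 7.54, 7.59 and 8.06 in Large White boars. In deposited intensity these were 829.9, 841.4 and 793.2 in Northeastern Indigenous boars, against 217.7, 181.5 and 294.8 in Large White boars. The Northeastern Indigenous arrays were nearly level, with a range of 0.10 log2 units, while Large White replicate 3 stood 0.47 above replicate 2 of its breed. The means were 9.75 ± 0.05 in Northeastern Indigenous and 7.73 ± 0.28 in Large White boars (SD, n = 3 each), a difference of 2.02 ± 0.25 (SE of limma's fit), which is 4.06-fold. The lowest Northeastern Indigenous value lay 1.64 above the highest Large White value.

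The second RETREG1 probe set showed the same separation at a somewhat lower brightness. It read 8.97, 9.43 and 9.44 in Northeastern Indigenous boars, against 7.41, 7.46 and 7.52 in Large White boars. In deposited intensity this was 464.2, 653.7 and 659.2 in Northeastern Indigenous boars, against 197.9, 165.9 and 199.7 in Large White boars. Here the Large White arrays were the tight group, with a range of 0.10, and Northeastern Indigenous replicate 1 stood 0.47 below the brightest array of its breed. The means were 9.28 ± 0.27 in Northeastern Indigenous and 7.46 ± 0.05 in Large White boars (SD, n = 3 each), a difference of 1.82 ± 0.25 (SE), or 3.52-fold. The probe sets did not place the arrays of a breed in the same order in Northeastern Indigenous boars, where replicate 3 was the dimmest with the first and the brightest with the second. In Large White boars both ordered replicate 1 lowest and replicate 3 highest, although replicates 1 and 2 were only 0.04 and 0.05 apart. The first probe set minus the second came to 0.47 on average in Northeastern Indigenous and 0.27 in Large White boars and ran from 0.13 to 0.80 over the 6 arrays, so the gap between probe sets varied more within a breed than between breeds.

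UBXN2A was likewise brighter on every Northeastern Indigenous array. It read 9.59, 9.39 and 9.94 in Northeastern Indigenous boars, against 7.56, 8.27 and 7.74 in Large White boars. Large White replicate 2 was the brightest of its breed, 0.70 above replicate 1 and 0.53 above replicate 3. In deposited intensity UBXN2A was 726.6, 639.0 and 943.5 in Northeastern Indigenous boars, against 220.3, 291.3 and 235.4 in Large White boars. The means were 9.64 ± 0.28 in Northeastern Indigenous and 7.86 ± 0.37 in Large White boars (SD, n = 3 each), a difference of 1.79 ± 0.30 (SE), or 3.45-fold, with a gap of 1.13 between the nearest arrays of the breeds. The 3 Northeastern Indigenous values lay within 0.55 of each other and the 3 Large White values within 0.70, so the order of arrays inside a breed rests on steps smaller than the gap between breeds.

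**Figure D1:**
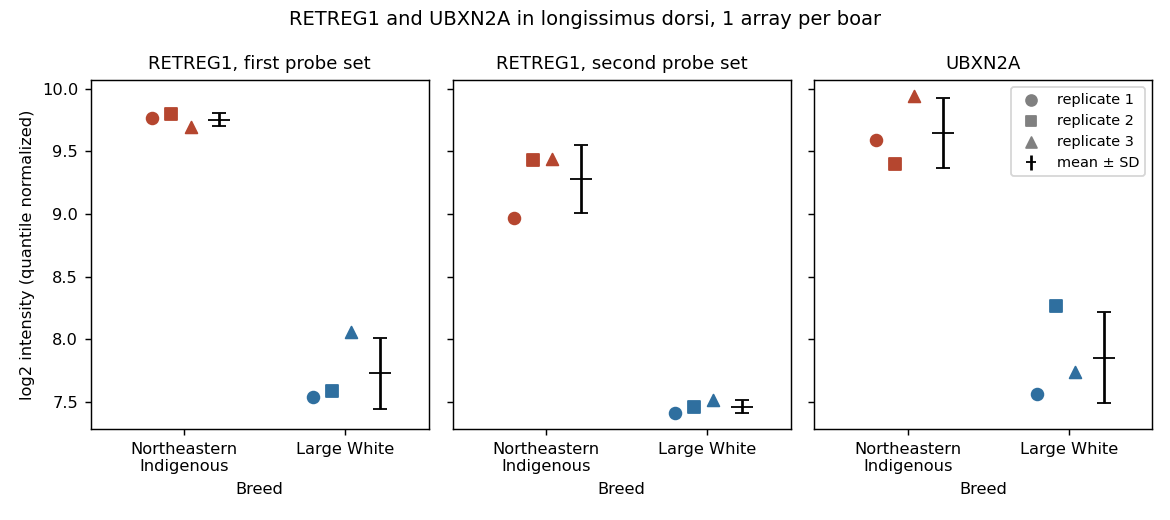
The vertical axis is log2 intensity after quantile normalization, each point is 1 boar (symbol by replicate number), and the bars are mean ± SD of 3 arrays per breed. In each panel the 3 Northeastern Indigenous points lie above the 3 Large White points, by at least 1.64 and 1.45 log2 units for the RETREG1 probe sets and 1.13 for UBXN2A.

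Separation of this kind was not rare on these arrays. All 3 probe sets had no overlap between breeds with Northeastern Indigenous boars higher, which also held for 14.2% of the 14399 probe sets past the filter, and since the genes were picked for it nothing is read from that count. Across all probe sets limma called 0 at a Benjamini-Hochberg adjusted p under 0.05 (0%), and 2706 had an unadjusted p under 0.05, 8.82% of all probe sets with Northeastern Indigenous boars higher and 9.97% with them lower. The count of 0 depended on 1 array. With Large White replicate 2 left out limma called 4425 probe sets (30.7%), and of named genes it called 16.9% as higher and 17.3% as lower in Northeastern Indigenous boars, so each list below is also given without that array.

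The members and the markers of fat and muscle can be set side by side on the Large White arrays. RETREG1's first probe set was -0.04 on replicate 1 and 0.47 on replicate 3 relative to replicate 2, and its second was -0.05 and 0.06. UBXN2A was -0.70 and -0.53. The 13 muscle fibre markers had medians of -3.22 and -0.27 on the same scale, with single genes from -5.97 to -0.62 on replicate 1 and from -1.63 to -0.03 on replicate 3. The 7 adipocyte markers had medians of 3.48 and 2.54, and the 11 leukocyte markers 1.42 and 1.31. On replicate 1 the step of UBXN2A was in the direction of all muscle markers and close in size to the smallest of theirs. On replicate 3 its -0.53 went further than the muscle median of -0.27 and lay within the range of single genes. The 0.47 of RETREG1's first probe set on replicate 3 was in the direction of the adipocyte and leukocyte markers. The fibroblast and matrix median there was 1.81, and RETREG1's second probe set was at 0.06. On replicate 1, where the adipocyte and leukocyte medians were 3.48 and 1.42, the RETREG1 probe sets were at -0.04 and -0.05. The part of the markers in the members' values was not tested.

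Against Large White replicate 2 by itself, where the muscle and adipocyte medians stood at -0.03 and 0.22 from the Northeastern Indigenous mean, both genes, which were picked for standing above the Large White arrays, had differences of the same sign. The first RETREG1 probe set stood at 2.16, which is 4.48-fold, the second at 1.82 and UBXN2A at 1.38, or 2.60-fold. This is a comparison with 1 array and has no replicate check on the Large White side. A difference of at least 1 log2 unit above that array was found in 5.08% of probe sets, and since the members were selected on a measure that holds this array, nothing is read from it. Leukocyte markers were 0.72 and matrix markers 0.48 higher on replicate 2 than the Northeastern Indigenous mean, and their part in these differences was not tested.

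**Figure D2:**
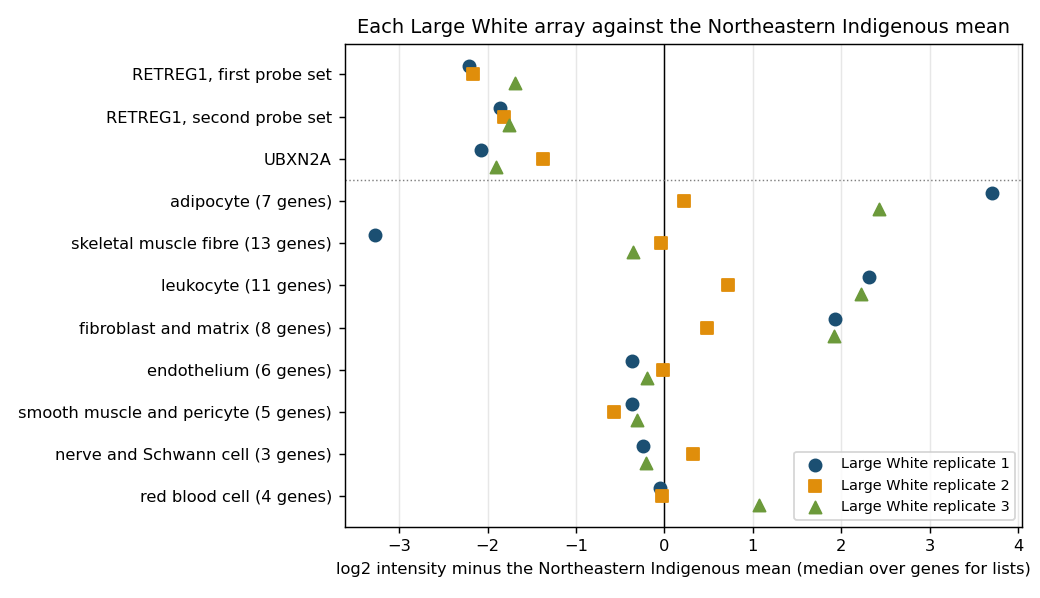
The horizontal axis is log2 intensity on each Large White array minus the Northeastern Indigenous mean, with 1 symbol per array, for the members (top 3 lines) and for the medians of 8 marker lists. The members lie between -2.21 and -1.38 on all 3 arrays, while adipocyte markers run from 0.22 to 3.70 and muscle fibre markers from -3.27 to -0.03.

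The other ER-phagy receptors and their regulators had differences on both sides of 0. Of 18 genes listed, 15 were measured and limma called 0 of them (0% of the 5438 named genes were called), with 0 higher and 2 lower in Northeastern Indigenous boars at an unadjusted p under 0.05, against 9.42% and 11.4% of all named genes. The median difference of the list was 0.22, beside 0.09 over all named genes, and against Large White replicate 2 it was 0.03, with no gene more than 0.53 away in either direction. Without Large White replicate 2, limma called 1 as higher and 4 as lower, against 16.9% and 17.3% of named genes. RETREG2, the paralog of RETREG1 with the same hairpin fold, read 9.01, 8.92 and 8.76 in Northeastern Indigenous boars, against 8.54, 8.77 and 8.44 in Large White boars. Its breeds overlapped and its difference was 0.31 ± 0.24 (SE), and 0.12 against Large White replicate 2. A second RETREG2 probe set gave 0.09. RETREG3, CALCOCO1 and UBAC2 were not analysed here.

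Several ER-phagy receptors were dimmer in Northeastern Indigenous boars than on Large White replicates 1 and 3. ATL3, a GTPase that fuses ER tubules and binds GABARAP proteins, read 9.17, 8.35 and 8.24 in Northeastern Indigenous boars, against 12.17, 9.09 and 10.83 in Large White boars, and its breeds overlapped. RTN3, the reticulon receptor of ER tubules, read 8.89, 9.47 and 9.25 in Northeastern Indigenous boars, against 11.93, 9.58 and 10.48 in Large White boars, with no overlap. The differences were -2.11 ± 0.74 and -1.46 ± 0.57 (SE), and they were -0.50 and -0.37 against Large White replicate 2. Other RTN3 probe sets gave -0.83 and -0.55. Neither passed limma's adjusted threshold (adjusted p = 0.234 and 0.252). SEC62, a translocon protein that acts as a receptor during recovery from ER stress, differed by -0.68 ± 0.36, and CCPG1, a receptor induced by ER stress, by -0.62 ± 0.37 (SE). Both turned positive against Large White replicate 2, at 0.03 and 0.24. TEX264, the receptor with an LC3-binding tail, differed by 0.22 ± 0.29, and VAPB, an ER tether for other membranes, by 0.57 ± 0.31. Against replicate 2 TEX264 stood at 0.53 and VAPB at 0.0011.

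CAMK2B, the kinase that phosphorylates RETREG1 and promotes its clustering in the ER membrane, had the largest positive difference of that list at 2.31 ± 1.29 (SE). It is named here after its value was seen. It read 8.19, 7.56 and 7.87 in Northeastern Indigenous boars, against 2.29, 7.85 and 6.57 in Large White boars, so the breeds overlapped. The 2.29 lies below 5.85, the mean log2 intensity at which dim probe sets were filtered out, so the size of the difference rests on a reading not shown to be above background. The difference was 0.03 against Large White replicate 2, and it was 0.67 when Large White replicate 1 was left out.

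Genes that shape the ER were split. Of 19 listed, 13 were measured, 6 with a positive and 7 with a negative difference. Limma called 0, with 0 higher and 3 lower at an unadjusted p under 0.05, against 9.42% and 11.4% of named genes. Without Large White replicate 2 it called 0 as higher and 4 as lower, against 16.9% and 17.3%. The median was -0.01 and changed sign under 5 of 14 alternatives. ARL6IP1, a small protein that bends ER tubules, read 9.08, 9.55 and 9.56 in Northeastern Indigenous boars, against 13.03, 9.65 and 11.87 in Large White boars. Its difference of -2.12 ± 0.78 (SE) came to -0.25 against Large White replicate 2. REEP3, which clears ER from dividing chromosomes, differed by -1.28 ± 0.42 and ESYT1, an ER tether to the plasma membrane, by -1.44 ± 0.46, with -0.56 and -0.47 against replicate 2. RTN4, the most studied reticulon, differed by 0.34 ± 0.16, and by 0.17 against replicate 2. The breeds did not overlap in ARL6IP1, REEP3 and ESYT1, which were lower in Northeastern Indigenous boars, nor in RTN4, which was higher. Over the list there was no overlap in 2 genes higher and 3 lower, against 15.9% and 12.3% of named genes.

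The machinery that builds autophagosomes held several genes with higher values in Northeastern Indigenous boars. Against the mean of the 3 Large White arrays the list as a whole stood at the median of all genes. Of 35 genes, 20 were measured and limma called 0. At an unadjusted p under 0.05 it had 5 higher and 0 lower, against 9.42% and 11.4% of named genes. Without Large White replicate 2 it called 5 as higher and 3 as lower, against 16.9% and 17.3%. The breeds did not overlap in 6, all higher, where 15.9% of named genes were higher and 12.3% lower without overlap. The list median was 0.09, the same as that of all named genes. Against Large White replicate 2 it was 0.22 with 14 of 20 genes positive, beside -0.004 and 2690 of 5438 for all named genes. WDR45, a phosphoinositide-binding protein of early autophagosomes, read 10.72, 11.21 and 11.11 in Northeastern Indigenous boars, against 9.40, 10.40 and 9.59 in Large White boars. Its difference was 1.22 ± 0.34 (SE; limma adjusted p = 0.224) and 0.61 against Large White replicate 2.

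ATG4A, a protease that trims the GABARAP and LC3 proteins, read 9.73, 9.14 and 9.87 in Northeastern Indigenous boars, against 8.58, 8.78 and 8.33 in Large White boars. The difference was 1.02 ± 0.30 (SE), with 0.80 against replicate 2, and other probe sets of the gene gave 0.98 and 0.06. WIPI1, another phosphoinositide-binding protein, differed by 0.63 ± 0.24, of which 0.57 was present against Large White replicate 2. MAP1LC3A, an LC3 protein that RETREG1 can bind, differed by 1.72 ± 0.55, and by 0.49 against replicate 2. Its relative MAP1LC3B read 11.95, 11.79 and 12.43 in Northeastern Indigenous boars, against 12.05, 12.45 and 11.97 in Large White boars, with a difference of -0.10 ± 0.26 that was 0.12 with arrays centred on their medians and -0.40 against replicate 2. A second MAP1LC3B probe set gave 0.06. GABARAPL1 differed by -0.94 ± 0.52, and by 0.26 against replicate 2.

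Receptors for other cargo, 11 of 14 measured, had a median difference of 0.30. Limma called 0 of them, and 2 were higher and 0 lower at an unadjusted p under 0.05, against 9.42% and 11.4% of named genes. Without Large White replicate 2 it called 1 as higher and 1 as lower, against 16.9% and 17.3%. The median was 0.05 against Large White replicate 2. SQSTM1, the p62 receptor for ubiquitin-tagged cargo, read 13.35, 13.04 and 13.63 in Northeastern Indigenous boars, against 12.62, 12.93 and 12.74 in Large White boars, a difference of 0.58 ± 0.21 (SE; limma adjusted p = 0.240), and 0.41 against replicate 2. PHB2, a mitochondrial prohibitin, differed by 0.88 ± 0.33 and OPTN, a receptor for mitochondria and bacteria, by 0.30 ± 0.22, and these came to 0.21 and 0.05 against replicate 2. BNIP3L, a mitochondrial receptor, differed by -1.60 ± 0.71, but by 0.10 against Large White replicate 2. A second BNIP3L probe set gave -1.04.

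Lysosomal genes encode the compartment where ER fragments are finally broken down. Of 34 listed, 25 were measured and 18 had a negative difference, with a median of -0.62, beside 2465 of 5438 named genes and a median of 0.09. Limma called 0, with 1 higher and 6 lower at an unadjusted p under 0.05, against 9.42% and 11.4% of named genes. Without Large White replicate 2 it called 3 as higher and 11 as lower, against 16.9% and 17.3% of named genes. The breeds did not overlap in 1 gene higher and 6 lower in Northeastern Indigenous boars, against 15.9% and 12.3% of named genes. CTSS, a cathepsin of antigen-presenting cells, differed by -1.85 ± 0.47 (SE), LIPA, the lysosomal acid lipase, by -2.49 ± 0.71, LAMP2, a lysosomal membrane protein, by -0.97 ± 0.30 and CTSB, a cathepsin, by -1.28 ± 0.46. The breeds did not overlap in any of them, and against Large White replicate 2 they stood at -0.82, -0.77, -0.42 and -0.20. Other probe sets of LAMP2 gave -0.06, -0.48 and -0.25, those of CTSS -1.74 and -2.41, and that of LIPA -2.71. The list median was 0.02 against Large White replicate 2, with 13 of 25 genes positive, and it was -0.13 without Large White replicate 1. Leukocyte, adipocyte, and fibroblast and matrix markers were higher on Large White replicates 1 and 3 than the Northeastern Indigenous mean. In that order they stood at 2.31 and 2.23, at 3.70 and 2.42, and at 1.93 and 1.92. Their part in the lysosomal difference was not tested.

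Among the measured genes of proteins that work with VCP, UBXN2A left out, PLAA had the largest positive difference. The list of UBX proteins and VCP partners had 26 genes, of which 13 were measured. The median was 0.30 (0.18 against Large White replicate 2). Limma called 0, with 1 higher and 0 lower at an unadjusted p under 0.05, against 9.42% and 11.4% of named genes. Without Large White replicate 2 it called 2 as higher and 0 as lower, against 16.9% and 17.3%. PLAA, a ubiquitin-binding cofactor of VCP, read 10.33, 9.82 and 10.01 in Northeastern Indigenous boars, against 8.47, 8.94 and 8.57 in Large White boars, with no overlap. The difference was 1.39 ± 0.28 (SE; limma adjusted p = 0.224), and 2 other probe sets gave 1.09 and 1.45. It was 1.11 against Large White replicate 2.

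VCP read 11.63, 11.58 and 11.81 in Northeastern Indigenous boars, against 11.04, 11.47 and 11.06 in Large White boars, a difference of 0.48 ± 0.23 (SE) with no overlap. It was 0.21 against Large White replicate 2, and a second probe set gave 0.04. UBXN2B, another UBX adaptor of VCP, read 8.69, 7.36 and 8.49 in Northeastern Indigenous boars, against 6.60, 7.76 and 7.15 in Large White boars. Its breeds overlapped and its difference was 1.01 ± 0.46, and 0.42 against replicate 2. NSFL1C, the p47 adaptor of VCP in membrane fusion, differed by 0.70 ± 0.34, and by 0.10 against Large White replicate 2. UBXN4, which anchors VCP at the ER for degradation, differed by -0.07 ± 0.25, by 0.03 on the deposited scale and by 0.24 against replicate 2. A second UBXN4 probe set gave 0.25.

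Of 12 proteins linked to UBXN2A, 5 were measured, and the nicotinic receptor genes were not among them. The list median was 0.28, but -0.21 against Large White replicate 2, with 2 of 5 genes positive. HSPA9, the mortalin chaperone that UBXN2A binds, read 12.84, 12.78 and 13.04 in Northeastern Indigenous boars, against 12.74, 12.45 and 12.50 in Large White boars, a difference of 0.32 ± 0.19 (SE), with 0.66 and 0.78 from other probe sets and 0.44 against Large White replicate 2. STUB1, the CHIP ubiquitin ligase, differed by 1.22 ± 0.45, and by 0.26 against Large White replicate 2. DNAJA1, a co-chaperone of HSPA8, differed by -1.42 ± 0.49, although a second probe set gave 0.13, and BAG1, another co-chaperone, by 0.28 ± 0.31. Against replicate 2 DNAJA1 stood at -1.25 and BAG1 at -0.31. Limma called 0 of the 5, with 1 higher and 1 lower at an unadjusted p under 0.05, against 9.42% and 11.4% of named genes. Without Large White replicate 2 it called 1 as higher and 0 as lower, against 16.9% and 17.3%.

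**Figure D3:**
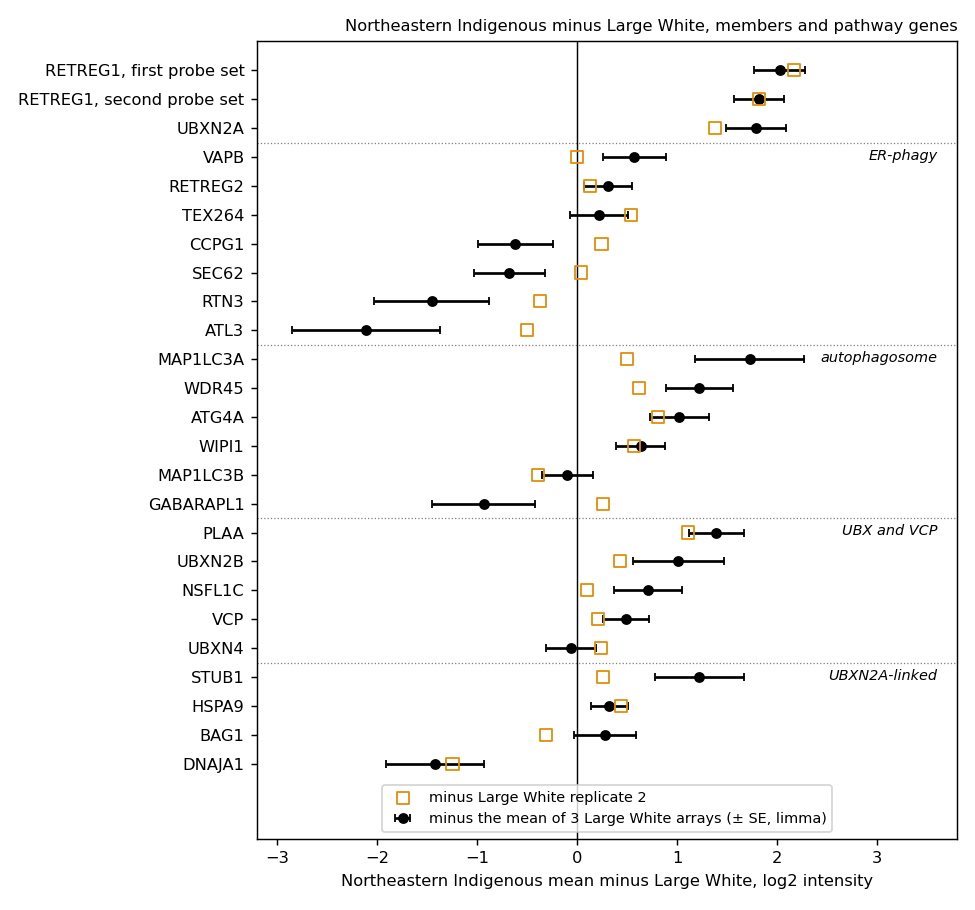
The horizontal axis is the difference in log2 intensity, Northeastern Indigenous mean minus the mean of 3 Large White arrays (filled points, ± SE from limma) or minus Large White replicate 2 (open squares), for the members and the named genes of 4 lists. RETREG1 and UBXN2A, picked for their difference, stand at 1.38 or more on both measures, and many open squares lie nearer 0 than the filled point of the same gene, as for ATL3 at -0.50 and -2.11.

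Genes of ER-associated degradation, the route by which VCP clears ER proteins, were centred near 0. Of 36 listed, 17 were measured, with a median of 0.07 and -0.02 against Large White replicate 2. Without Large White replicate 2 limma called 4 as higher and 1 as lower, against 16.9% and 17.3% of named genes. With all arrays it called 0, with 1 higher and 0 lower at an unadjusted p under 0.05, against 9.42% and 11.4%. The 1 was TMEM129, an ER ubiquitin ligase, which read 8.01, 7.97 and 8.25 in Northeastern Indigenous boars, against 7.27, 7.34 and 7.19 in Large White boars, a difference of 0.81 ± 0.23 (SE; limma adjusted p = 0.224) with no overlap, and 0.74 against replicate 2. DERL1, a channel component, differed by -1.10 ± 0.49, AUP1, a lipid droplet and ER factor, by 0.73 ± 0.34 and UBE2J2, a ubiquitin-conjugating enzyme of the ER, by 0.97 ± 0.48. These came to -0.09, 0.05 and -0.11 against replicate 2.

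ER chaperones and genes of the unfolded protein response act when misfolded proteins build up in the ER. Of 39 listed, 25 were measured, 19 with a negative difference, and the median was -0.30, beside 2465 of 5438 named genes and a median of 0.09. Limma called 0, with 0 higher and 7 lower at an unadjusted p under 0.05, against 9.42% and 11.4% of named genes. Without Large White replicate 2, where 26 passed the filter, it called 1 as higher and 10 as lower, against 16.9% and 17.3%. The breeds did not overlap in 1 gene higher and 6 lower in Northeastern Indigenous boars, against 15.9% and 12.3% of named genes. HSPA5, the BiP chaperone and the usual readout of ER stress, read 12.24, 11.95 and 11.86 in Northeastern Indigenous boars, against 13.45, 12.19 and 12.83 in Large White boars, and its breeds overlapped. Its difference was -0.80 ± 0.33 (SE; limma adjusted p = 0.262), and -0.17 against Large White replicate 2. HSP90B1, the GRP94 chaperone, differed by -1.11 ± 0.33, SEC61A1, the translocon channel, by -1.43 ± 0.47, XBP1, a transcription factor of the response, by -1.27 ± 0.43 and PDIA6, a disulfide isomerase, by -1.19 ± 0.41. The breeds did not overlap in any of them, and against Large White replicate 2 they stood at -0.58, -0.49, -0.32 and -0.30. A second SEC61A1 probe set gave 0.61 and a second HSP90B1 probe set -0.58. Against Large White replicate 2 the list median was -0.08, with 10 of 25 genes positive. Leukocyte, adipocyte, and fibroblast and matrix markers were higher on Large White replicates 1 and 3, as the median of this list was. The part of these markers was not tested.

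Over the 9 lists together, 144 genes were measured and limma called 0. A difference as large as that of UBXN2A was found in 3 of them, CAMK2B at 2.31, RTN2 at 2.93 and ATG4D at 1.88, and against Large White replicate 2 these stood at 0.03, -0.21 and 0.42. A difference of that size was found in 1.88% of named genes, a share near that of these lists. All 3 had a reading below 5.85 on Large White replicate 1, at 2.29 for CAMK2B, 4.38 for RTN2 and 5.79 for ATG4D. A second ATG4D probe set gave a breed difference of 1.16. A difference of at least 1 log2 unit against replicate 2 was found in 2 of them, PLAA at 1.11 and PPP1R15A, a phosphatase subunit of the stress response, at 2.41, where 3.92% of named genes had one. PPP1R15A read 7.76, 6.95 and 7.49 in Northeastern Indigenous boars, against 7.53, 4.99 and 7.19 in Large White boars, so Large White replicates 1 and 3 lay inside the Northeastern Indigenous range and the 4.99 on replicate 2 lay below the filter's 5.85. RTN2, CAMK2B, ATG4D and PPP1R15A are named after their values were seen.

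**Figure D4:**
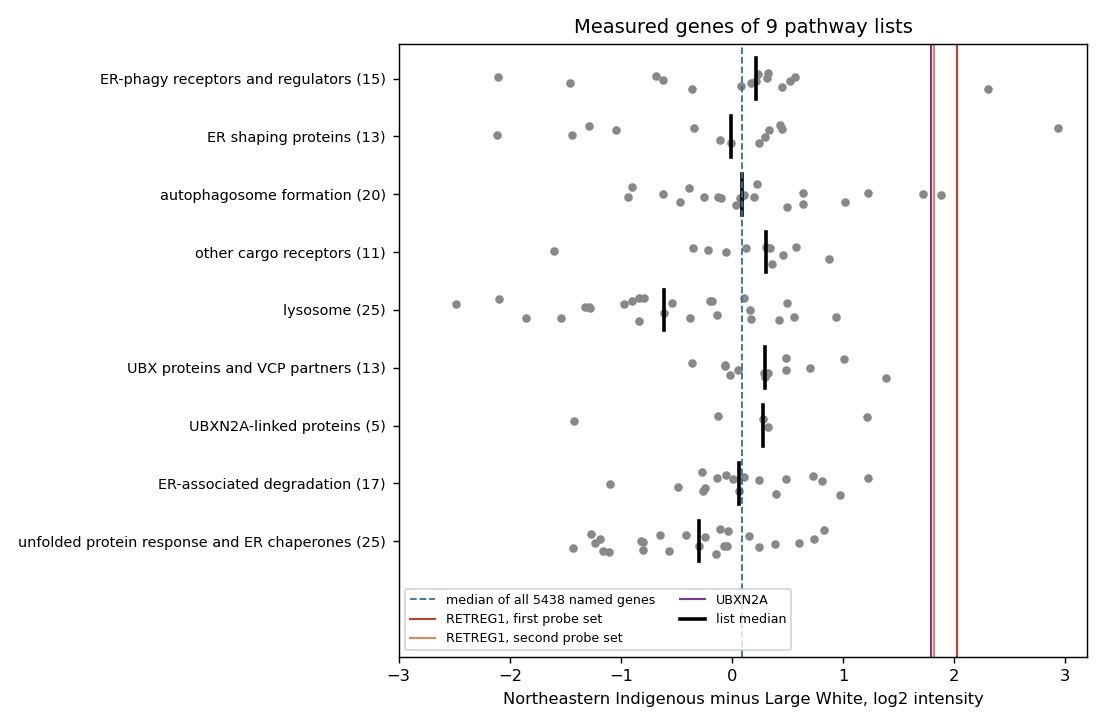
The horizontal axis is the difference in log2 intensity, Northeastern Indigenous minus Large White, with 1 point per measured gene, a black bar at each list median, coloured lines at the members and a dashed line at the median of all named genes, 0.09. List medians run from -0.62 for the lysosome to 0.30 and single genes reach 2.93, beside the members, which stand from 1.79 to 2.02 and were picked for their difference.

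The profiles most like each gene were found by the root mean square difference between log2 profiles centred on their own means over the 6 arrays, among 5294 other named genes. The nearest to the first RETREG1 probe set were CARD19 at 0.26, CCNJ at 0.27, WHAMM at 0.35, ZNF385D at 0.36 and UBXN2A at 0.37. CARD19, a mitochondrial membrane protein with a CARD domain, read 9.59, 9.38 and 9.35 in Northeastern Indigenous boars, against 7.75, 7.89 and 7.93 in Large White boars. WHAMM, which nucleates actin on ER, Golgi and autophagosome membranes, read 7.39, 7.16 and 7.24 in Northeastern Indigenous boars, against 5.65, 4.58 and 5.86 in Large White boars, of which 5.65 and 4.58 lie below the filter's 5.85. CCNJ, a cyclin, differed by 1.79 and ZNF385D, a zinc finger protein, by 2.03. Against Large White replicate 2 they stood at 1.79 and 2.04.

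The genes nearest to UBXN2A were UGP2 at 0.20, CDC37L1 at 0.23, and ACADVL, CST6 and TWF2 at 0.25, and RETREG1 came in place 32. UGP2, which makes UDP-glucose for glycogen, read 14.29, 14.06 and 14.52 in Northeastern Indigenous boars, against 12.47, 13.39 and 12.78 in Large White boars. In all 5, as in UBXN2A, Large White replicate 2 was the brightest of its breed. Against that array their differences were 0.90 for UGP2, 1.06 for CDC37L1, an HSP90 co-chaperone, 1.14 for ACADVL, the enzyme that starts oxidation of very long fatty acids, 0.75 for CST6, a cystatin, and 0.88 for TWF2, an actin-capping protein. The measure rests on 6 arrays and favours genes with a breed difference of the same size and a like order of arrays within a breed. For both members, nothing is therefore read from the shared order or from the sizes against Large White replicate 2.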

How the data were processed

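The deposited values are linear intensities, 1 for each probe set on each array. Neither the software that made them nor a genome build is named in the labels, and no coordinates or sequences are printed. With 2% trimmed at either end, mean deposited intensity was 500.1 to 500.2 on all arrays, while array medians spanned 0.35 on the log2 scale. After 124 control probe sets were left out, 23999 were put on the log2 scale and quantile normalized. The filter at the 40th percentile fell at a mean log2 intensity of 5.85 and passed 14399 probe sets, covering 5438 named genes.

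Breeds were compared in limma 3.58.1 under R 4.3.3, using lmFit and then eBayes with trend. Tests were two-sided, adjusted by Benjamini-Hochberg over all 14399 probe sets, at a threshold of 0.05. The fit was tested on simulated data drawn from the measured means and spreads, where it returned the simulated differences on average but called a minority of the changed probe sets. Names came from the platform annotation, and probe sets with several symbols were not used. A gene was represented by its brightest probe set.

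The members and lists were chosen with earlier results of these data known. All probe sets of the members are named. From each list, the rule names the 4 genes of smallest unadjusted p, and adds 18 receptors, partners and chaperones whatever their values. The 5 genes most like each member are also named. Alternatives were 2 other scalings, an offset of 16, other filters and variance priors, a threshold of 0.1, the replicate block, averaging the probe sets of a gene, another measure of likeness, and leaving out arrays.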

Additional observations from a re-analysis of the deposited data

How the results depend on the processing

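The RETREG1 and UBXN2A differences kept their sign under all 11 alternatives run on them. Each Northeastern Indigenous array lay above each Large White array, the trait the genes were picked for. Leaving out arrays could therefore not change the sign, and the replicate block gave the same differences as the main fit. Nothing is read from the kept signs. Leaving out 1 array gave 1.94 to 2.18 and 1.74 to 1.95 for the RETREG1 probe sets and 1.63 to 1.99 for UBXN2A. Without Large White replicates 1 and 3 together UBXN2A was at 1.40. On the deposited scale the differences were 1.86, 1.64 and 1.62. The count of 0 called probe sets became 1 with arrays centred on their medians, at an adjusted p under 0.1 and without Large White replicate 1, and it ran from 0 to 4425 when 1 array was left out, the 4425 without Large White replicate 2. With the replicate block it was 0, with 2109 at an unadjusted p under 0.05. The deviations of same-numbered arrays correlated at -0.02, -0.16 and -0.11, and those of differently numbered arrays at -0.09 to 0.13. With 3 arrays a breed these values cannot decide whether the numbers pair the animals.

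List medians kept their sign in 115 of 126 alternatives. The replicate block is counted among these for each list and gave the same medians as the main fit, so it could not change a sign. The ER shaping median turned to 0.12 under the 60th percentile filter, to 0.24 where probe sets of a gene were averaged, and ran from -0.20 to 0.15 when 1 array was left out. The ER-associated degradation median turned to -0.020 on the deposited scale and to -0.021 without Large White replicates 1 and 3 together, and ran from -0.065 to 0.18 when 1 array was left out. Without those 2 arrays the lysosome median was 0.022 and the UBXN2A-linked median -0.28. With Pearson correlation as the likeness, 1 of 5 genes was shared for each member. The causes were not tested. The median difference of all probe sets was 0.10, and -0.01 on the deposited scale.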
